A study of Homo sapiens with 4 samples.

Results

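The SLC25 genes encode the mitochondrial carrier family, the largest group of solute carriers in human cells. The members described here are the protein-coding genes whose symbol starts with SLC25A in 2 tables of ribosome footprints over splice junctions, 1 from K562 cells and 1 from HepG2 cells. Of 48 such genes in the annotation, 46 were listed, among 35316 gene identifiers, and they held 600 of the 350863 listed junctions. SLC25A2 and SLC25A52 had no listed junction. The rule for membership used no measured value, although the members were chosen with earlier results of these data known. At least 20 uniquely mapped reads over both tables, the minimum for a ratio, were found for 38 members.

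Most SLC25 proteins lie in the inner mitochondrial membrane and exchange a solute of the matrix for one of the space outside it. They share a fold of repeated pairs of membrane helices, and the members differ mainly in the solute they bind: phosphate, adenine nucleotides, carboxylic acids, amino acids, cofactors or metals. In liver, several members connect the matrix and cytosolic steps of the urea cycle and of sugar and fat synthesis, while in red cell precursors the mitoferrins and a glycine carrier feed heme synthesis.

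Ribosome profiling sequences the messenger RNA fragments that ribosomes protect from digestion. It was applied to 2 samples of K562, a line of erythroid character derived from chronic myelogenous leukemia, and 2 of HepG2, a liver tumor line of hepatocyte character. No treatment is given for either line, and all 4 samples were lysed with cycloheximide, which holds elongating ribosomes in place. Both samples of a line share 1 junction table, so a value has no replicate check and no p-value can be given.

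Each ratio is K562 over HepG2, computed from uniquely mapped reads at junctions of 1 gene after TMM scaling, a scaling between libraries that leaves out the most extreme genes. The range after a ratio is its exact 95% interval, which covers counting error only. The word higher is kept for genes whose whole interval lay past 2-fold. The tables held 7487508 unique reads in K562 and 9927809 in HepG2. Of 7 erythroid markers (median log2 ratio of all 7, 8.01), 6 were higher in K562, and EPOR, at 0.66, passed neither limit. All 7 of 7 hepatocyte markers were higher in HepG2 (median -12.23). Of 6 fibroblast markers, 3 had 20 reads, namely COL1A1 with 33 reads in K562 against 1 in HepG2, COL1A2 with 210 in K562 against 0 in HepG2, and PDGFRB with 0 in K562 against 34 in HepG2, and their part in the ratios below was not tested. A footprint count reflects messenger RNA level and ribosome load together, and these were not measured apart.

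Few carriers differed widely between the lines. The 38 members together had 18813 reads in K562 against 18935 in HepG2, a ratio of 0.989 (0.969 to 1.01). These were 0.261% of the single-gene reads of K562 and 0.197% of those of HepG2. Only 3 members (7.89%) were higher in K562, where 16.8% of all 10956 genes with 20 reads were. In HepG2, 5 members (13.2%) were higher, against 21.9% of all genes. In either direction this made 21.1% of the members and 38.7% of all genes, so the share counted among the carriers did not exceed the share among genes at large. The median log2 ratio of the members was -0.16 and that of all genes -0.01, and the median size of the log2 ratio without its sign was 0.83 in the members and 0.99 in all genes.

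The members counted for K562 were SLC25A21, SLC25A17 and SLC25A41. Those counted for HepG2 were SLC25A13, SLC25A15, SLC25A30, SLC25A33 and SLC25A29. Among the other 30 members, 13 intervals included a ratio of 1, 8 lay above 1 without passing 2-fold, and 9 lay below 1 without passing 2-fold. By role, phosphate and adenine nucleotide carriers had 2 of 10 measured members counted for K562 and 0 for HepG2. Amino acid carriers had 0 of 7 counted for K562 and 3 for HepG2. The shares among all measured genes, for comparison, were 16.8% toward K562 and 21.9% toward HepG2. Among these calls, SLC25A41 rested on 30 reads in K562 against 0 in HepG2, and SLC25A29 on 3 against 31. Groups of 10 and 7 members are small, and they were not tested against each other or against all genes. With scaling by total reads in place of TMM, which moves the median log2 ratio of all genes to 0.41, 7 members were higher in K562 and 4 in HepG2. The K562 share of the calls over all genes was then 58.0% in place of 43.3%.

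**Figure D1:**
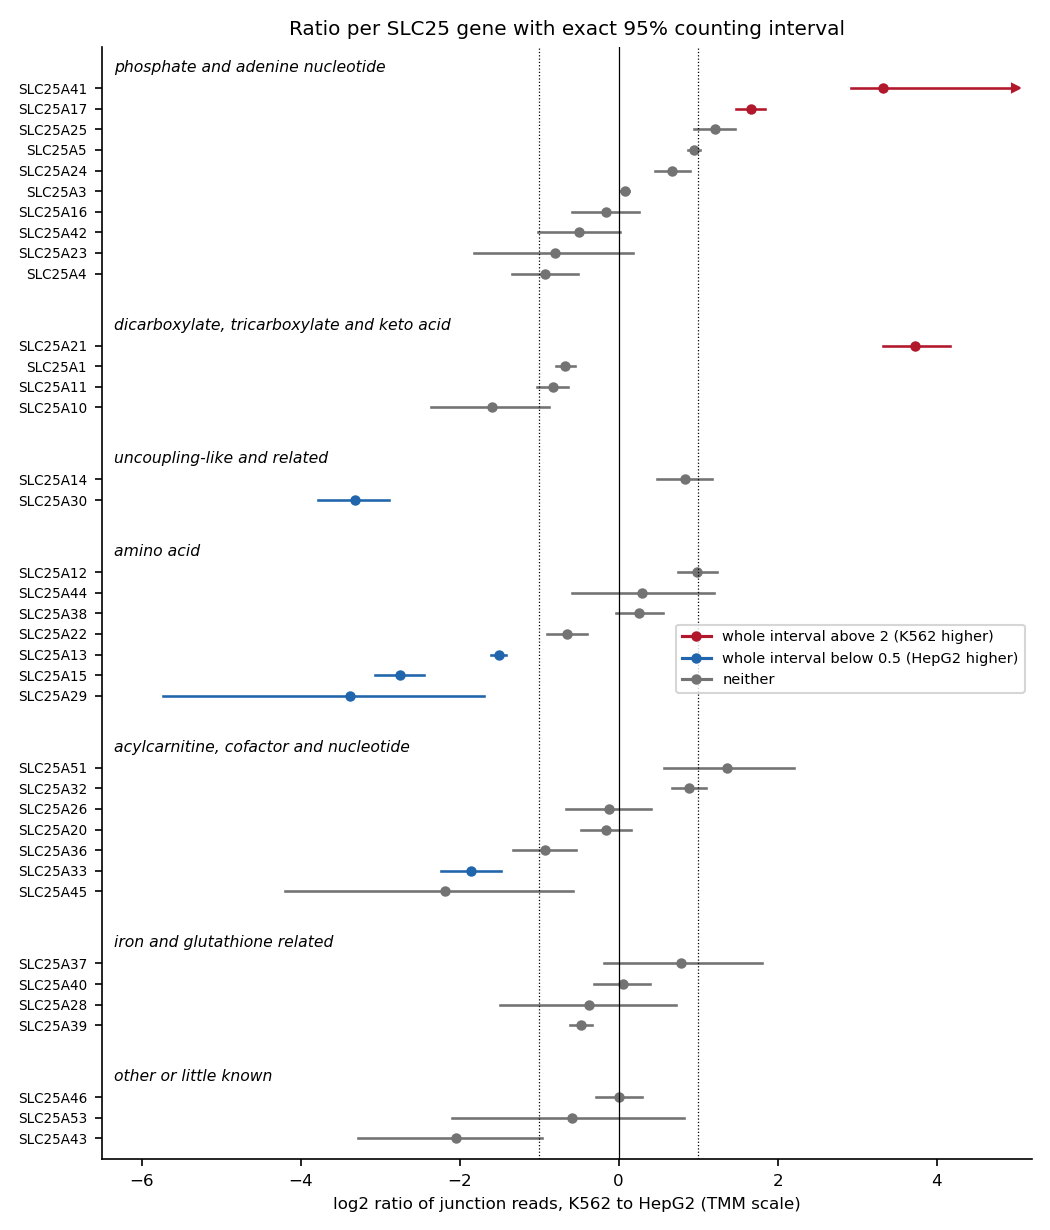
Log2 ratio of unique junction reads, K562 to HepG2 on the TMM scale, for 37 of the 38 SLC25 genes with 20 or more reads, grouped by role; bars are exact 95% intervals for counting error, dotted lines mark 2-fold, and the arrow marks an open upper bound. The points run from -3.38 for SLC25A29 to 3.73 for SLC25A21, and 29 of the 37 are neither red (K562 higher) nor blue (HepG2 higher).

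Levels were compared between genes as unique reads per coding junction of a representative transcript, per 1000000 scaled reads, including junctions that a readthrough gene shares. SLC25A5 and SLC25A3 led in both lines, at 168 and 97.6 in K562 against 86.9 and 94.5 in HepG2. These 2 genes took 53.5% (52.8 to 54.2) of the K562 reads of the family and 40.7% (40 to 41.4) of its HepG2 reads. SLC25A13 was the next gene in HepG2, at a level of 23.4, and stood seventh in K562 at 7.94. SLC25A6 had 0 unique reads, so it is absent from these levels, ranks and shares. From all mapped reads, summed over X and Y, its level was 73.7 in K562 and 31.9 in HepG2. The level of SLC25A13 from all mapped reads was 6.56 in K562 and 19.6 in HepG2. The largest shifts in rank were those of SLC25A21, 6 in K562 and 32 in HepG2 among 36 members with coding junctions, and of SLC25A30, 28 in K562 and 8 in HepG2. Over these 36 members the levels of the lines had a Spearman correlation of 0.73, a description across genes that share 1 library per line.

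**Figure D2:**
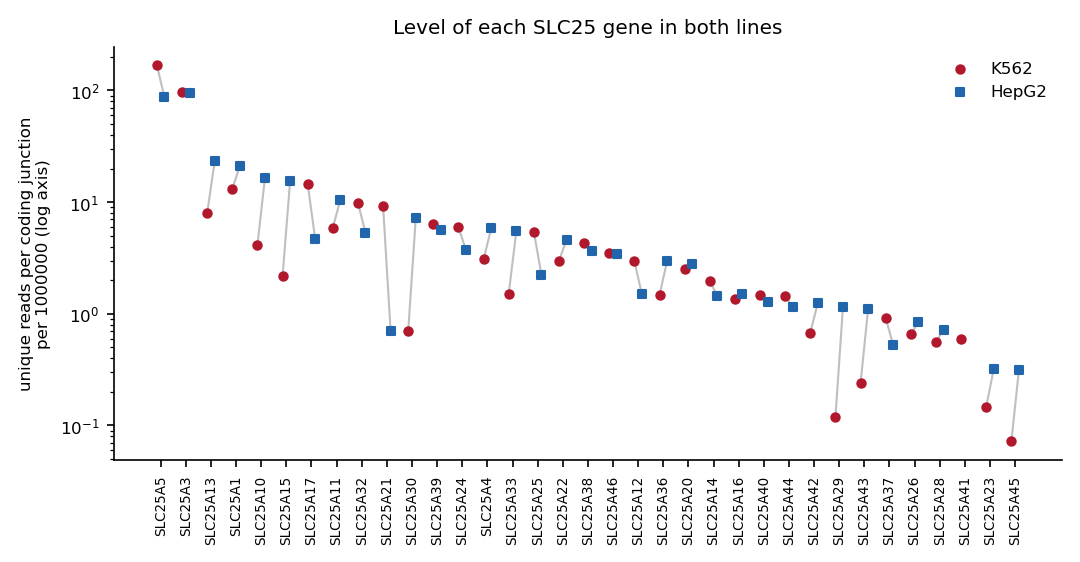
Level of 35 of the 36 SLC25 genes with coding junctions and 20 or more reads, as unique reads per coding junction per 1000000 scaled reads on a log axis, in K562 (red circles) and HepG2 (blue squares). SLC25A5 and SLC25A3 stand above all others in both lines, SLC25A21, SLC25A30, SLC25A15 and SLC25A29 are among the members with long grey lines, and SLC25A41 has no HepG2 point because it had 0 reads there.

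The phosphate carrier SLC25A3 (ENSG00000075415, GRCh38 chromosome 12, 98593591 to 98606379) brings phosphate into the matrix for ATP synthesis. It had the most unique reads of the family over both tables, with 5876 reads in K562 against 5541 in HepG2, a ratio of 1.06 (1.02 to 1.10). Exon 3 comes in 2 mutually exclusive forms, of which exon 3A is known from heart and skeletal muscle and exon 3B from most tissues. They are shown because footprints tell the forms apart only where the letters differ. Exon 3A lies at chr12:98595433-98595557 and exon 3B at chr12:98595727-98595848, both on the plus strand, and the capitals mark the 6 last bases that the exons have in common:
SLC25A3 exon 3A: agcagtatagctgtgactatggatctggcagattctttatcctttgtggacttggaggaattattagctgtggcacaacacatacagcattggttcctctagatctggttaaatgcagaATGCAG
SLC25A3 exon 3B: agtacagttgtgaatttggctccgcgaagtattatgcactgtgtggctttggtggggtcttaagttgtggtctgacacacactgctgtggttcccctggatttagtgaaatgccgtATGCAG

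The exons are 125 and 122 bases long, and 81 of 122 aligned bases (66.4%) are identical. Exon 3B carried nearly all unique reads in both lines. At the junction into the exons, 10 of 275 reads entered exon 3A in K562, 3.64% (1.76 to 6.59), and 0 of 595 did in HepG2, which allows a share of up to 0.504%. At the junction out of the exons, exon 3A had 0 of 263 reads in K562, with an interval that reaches 1.39%. In HepG2 it had 1 of 394, 0.254% (0.00643 to 1.41). Both junctions together gave 1.86% (0.895 to 3.39) in K562, from 10 of 538 reads, and 0.101% (0.00256 to 0.562) in HepG2, from 1 of 989. The 2 junctions of the exon thus gave different shares in K562, and they lie on either side of the same exon.

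The column of all mapped reads gave far larger shares of exon 3A, 19.4% in K562 and 8.24% in HepG2. Nearly all of that gain came from the junction out of exon 3A, which held 163 mapped reads in K562 and 109 in HepG2 but 0 unique ones in K562 and 1 in HepG2. The junction into exon 3A held 11 mapped reads in K562 and 0 in HepG2. The bases on both sides of the outgoing junction, the 6 shared ones and the exon that follows, are the same for exons 3A and 3B. The part of this identity in the multi-mapped reads was not tested.

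The adenine nucleotide translocators exchange ADP for ATP across the inner membrane. SLC25A5 (ENSG00000005022, chromosome X, 119468400 to 119471319), the form of growing cells, had 4195 reads in K562 against 2163 in HepG2, a ratio of 1.93 (1.83 to 2.03) that did not pass the 2-fold rule. SLC25A4, the form of heart and muscle, had 77 reads in K562 against 145 in HepG2, a ratio of 0.529 (0.396 to 0.702). The level of SLC25A5 over that of SLC25A4 was 54.5 in K562 and 14.9 in HepG2 from unique reads, and 112 in K562 and 28.8 in HepG2 from all mapped reads. Of the mapped reads of SLC25A5, 48.8% were unique, against 97.8% of those of SLC25A4. SLC25A31, the form of testis, had no mapped read in either line.

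SLC25A6, the remaining translocator, lies in the pseudoautosomal region (chromosome X, 1386152 to 1392724), is listed on X and Y alike, and had 0 unique reads. Its mapped reads numbered 2368 in K562 against 1002 in HepG2, a ratio of 2.31 (2.14 to 2.49) in that column. If multi-mapped reads were entered at several places, which is not stated, this interval is too narrow. The genes SLC25A4, SLC25A5 and SLC25A6 are cut by introns at the same coding positions, after 111, 598 and 739 coding bases. The 30 bases around the last of these junctions are shown because most SLC25A5 and SLC25A6 reads fell there, with the bases after the junction in capitals:
SLC25A5 junction 3: cagggcgcaaaggaaCTGACATCATGTACA
SLC25A6 junction 3: ccgggcgcaaaggagCTGACATCATGTACA
SLC25A4 junction 3: ccggccggaaaggggCCGATATTATGTACA

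SLC25A5 and SLC25A6 share 15 of 15 bases after this junction and 13 of 15 before it, while SLC25A5 and SLC25A4 share 12 and 10. At this junction SLC25A6 had 2081 mapped reads in K562 and 711 in HepG2. At its other 2 coding junctions the lines were close, with 247 reads in K562 against 245 in HepG2 at junction 2, and 39 in K562 against 44 in HepG2 at junction 1. The difference between the lines in SLC25A6 thus rested on 1 junction, which was also the most-read junction of SLC25A5, with 3447 unique reads in K562 and 1736 in HepG2. The SLC25A5 windows at junctions 1 and 2 recur in its processed pseudogenes, and 6.17% and 20.2% of the mapped reads there were unique, against 72.4% at junction 3.

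**Figure D3:**
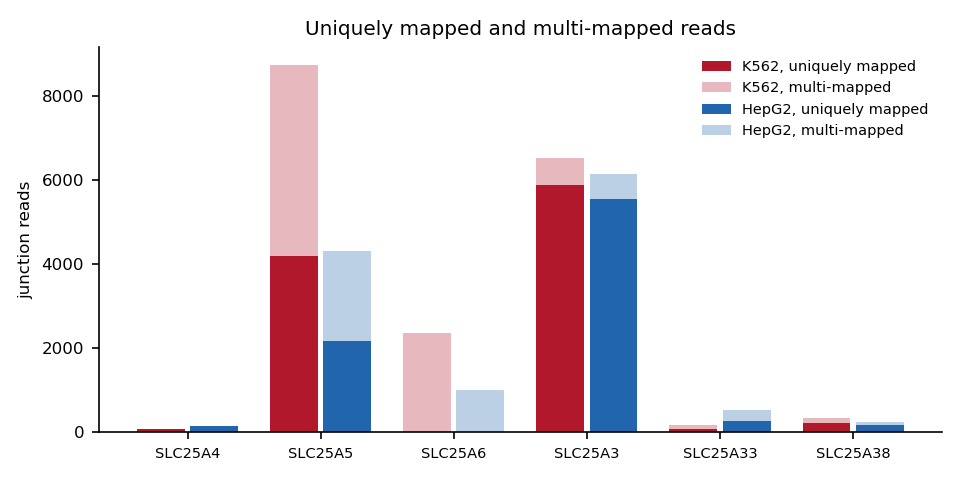
Junction reads of 6 SLC25 genes, uniquely mapped (solid) and multi-mapped (pale), in K562 (left bar of each pair, red) and HepG2 (right bar, blue). All reads of SLC25A6 are multi-mapped, as are many of SLC25A5 and SLC25A33, whereas SLC25A4 and most of SLC25A3 are unique.

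The calcium-regulated ATP-magnesium and phosphate carriers adjust the adenine nucleotide content of the matrix. SLC25A24 had 445 reads in K562 against 278 in HepG2, a ratio of 1.59 (1.37 to 1.86), and SLC25A25 had 410 reads in K562 against 177 in HepG2, a ratio of 2.31 (1.93 to 2.77) whose lower bound lies under 2-fold. SLC25A23 had 15 reads in K562 against 26 in HepG2. SLC25A41 (ENSG00000181240, chromosome 19, 6426037 to 6433779), a short form of this branch without the calcium-binding part, had 30 reads in K562 against 0 in HepG2. With a floor of 3 counts for the 0, it was at least 9.95-fold higher in K562, and the exact 95% interval of its ratio began at 7.61. Its 30 reads were spread over 4 junctions, with 13, 9, 7 and 1 reads, and with 100 reads as the minimum it would not be measured.

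SLC25A17 (ENSG00000100372, chromosome 22, 40769630 to 40819399) is the member that sits in peroxisomes, where it carries coenzyme A and other nucleotide cofactors. It had 994 reads in K562 against 313 in HepG2, a ratio of 3.16 (2.78 to 3.60). All 8 of its junctions with 10 or more reads lay on the K562 side. Those with reads in both lines had ratios between 1.53, from 77 reads in K562 against 50 in HepG2 at junction 2, and 4.16, from 372 in K562 against 89 in HepG2 at junction 3. The coenzyme A related members SLC25A42 and SLC25A16 had 57 and 91 reads in K562 against 80 and 101 in HepG2, with ratios of 0.709 and 0.897 whose intervals include 1.

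The carboxylate carriers pass intermediates of the citric acid cycle between matrix and cytosol. SLC25A21 (ENSG00000183032, chromosome 14, 36678431 to 37172866) carries oxoadipate and oxoglutarate in the breakdown of lysine and tryptophan, and had the highest ratio among the members with reads in both lines. It had 694 reads in K562 against 52 in HepG2, a ratio of 13.3 (10 to 18). All 9 of its junctions with 10 or more reads lay on the K562 side, from 3.23 at junction 4, with 13 reads in K562 against 4 in HepG2, to 53.7 at junction 7, with 216 in K562 against 4 in HepG2. The median log2 ratio of the 367 genes measured on chromosome 14 was -0.77, so this gene stood opposite to its chromosome.

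The other carboxylate carriers had more reads in HepG2 without passing the rule. The citrate carrier SLC25A1, which supplies cytosolic acetyl groups for fat and sterol synthesis, had 883 reads in K562 against 1395 in HepG2, a ratio of 0.630 (0.578 to 0.686). Its first junction went the other way, with 33 reads in K562 against 13 in HepG2. The oxoglutarate-malate carrier SLC25A11 had 346 reads in K562 against 611 in HepG2, a ratio of 0.564 (0.493 to 0.644).

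The dicarboxylate carrier SLC25A10 had 22 reads in K562 against 66 in HepG2 at junctions of its own, a ratio of 0.332 (0.195 to 0.545). Another 327 reads in K562 against 1321 in HepG2 fell on junctions that the annotation assigns also to a readthrough gene. With those included it had 349 reads in K562 against 1387 in HepG2, and the ratio of 0.252 (0.224 to 0.284) then passed 2-fold. Reads of the carrier and of the readthrough gene cannot be told apart there.

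**Figure D4:**
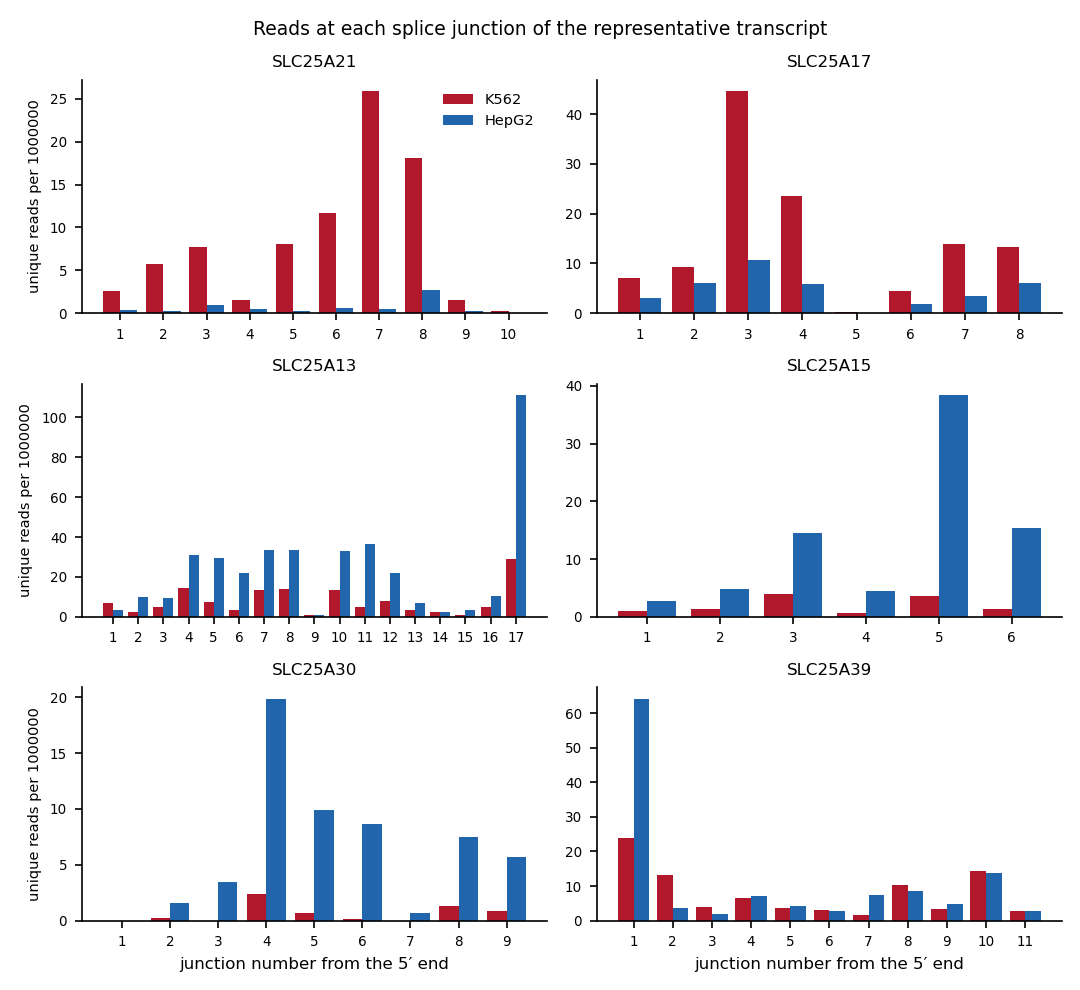
Unique reads per 1000000 scaled reads at each splice junction of the representative transcript, numbered from the 5′ end, in K562 (left bars, red) and HepG2 (right bars, blue) for 6 SLC25 genes. Red bars exceed blue ones at every well-read junction of SLC25A21 and SLC25A17, blue ones exceed red at those of SLC25A15 and SLC25A30, and SLC25A13 and SLC25A39 each differ in direction between junctions.

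Among the uncoupling-like carriers, SLC25A30 (ENSG00000174032, chromosome 13, 45393316 to 45418455) was higher in HepG2. It had 48 reads in K562 against 478 in HepG2, a ratio of 0.1000 (0.0727 to 0.135). All 7 of its junctions with 10 or more reads lay on the HepG2 side, and the most-read one had 20 reads in K562 against 165 in HepG2. SLC25A14 had 196 reads in K562 against 110 in HepG2, a ratio of 1.77 (1.40 to 2.26). SLC25A35 had 7 reads in K562 against 2 in HepG2, and SLC25A27 and SLC25A34 had no mapped read in either line.

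Among the amino acid carriers, a pair of close relatives had ratios on opposite sides of 1. SLC25A13 and SLC25A12 both export aspartate from the matrix in exchange for glutamate, in the malate-aspartate shuttle, and SLC25A13, called citrin, is the form of liver. SLC25A13 (ENSG00000004864, chromosome 7, 96120220 to 96322147) had 1166 reads in K562 against 3311 in HepG2, a ratio of 0.351 (0.328 to 0.375). With scaling by total reads its log2 ratio was -1.09 in place of -1.51 and no longer passed the rule. SLC25A12 had 420 reads in K562 against 210 in HepG2, a ratio of 1.99 (1.68 to 2.36). The level of SLC25A12 was 0.373 of that of SLC25A13 in K562 and 0.0637 in HepG2. SLC25A13 held 6.20% of the family's reads in K562 and 17.5% in HepG2, on a chromosome whose median log2 ratio was 0.42.

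The first junction of SLC25A12 lies after 12 coding bases, the start codon included. It had 168 of the gene's 420 reads in K562 and 31 of its 210 in HepG2. Without this junction the log2 ratio was 0.53 in place of 0.99. In SLC25A13, 16 of 18 junctions with 10 or more reads lay on the HepG2 side. The exceptions were its first junction and a junction that skips an exon. The first junction, after 15 coding bases with the start codon included, had 56 reads in K562 against 28 in HepG2.

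That skipping junction was the only switch in junction use counted in the family. It joins the exons on either side of the fourth exon and occurs in the annotation in a transcript marked for nonsense-mediated decay, a pathway that removes messages with an early stop. At the donor site it held 35 of 76 reads in K562, 46.1% (34.5 to 57.9), against 3 of 81 in HepG2, 3.70% (0.770 to 10.4). At the acceptor site it held 35 of 155 reads in K562, 22.6% (16.3 to 30), against 3 of 261 in HepG2, 1.15% (0.238 to 3.32). The skipped exon, at chr7:96234802-96234917 on the minus strand, is shown because its length of 116 bases leaves a remainder of 2 when divided by 3, so that its omission shifts the reading frame:
SLC25A13 skipped exon: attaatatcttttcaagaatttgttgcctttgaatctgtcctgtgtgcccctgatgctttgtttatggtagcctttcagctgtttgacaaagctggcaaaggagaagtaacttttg

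A switch was counted where a donor or acceptor site had 20 reads in each line, the shares lay 20 percentage points apart, and their exact 95% intervals were apart as well. In the SLC25 genes 104 junctions at 49 sites of 18 genes could be read, and 3 of them, all at this exon of SLC25A13, were counted. Over all genes 2.63% of 35814 junctions were counted, a share close to that of the family. At the read minimum, SLC25A14 fell just short, with 32 reads in K562 against 19 in HepG2 at 1 donor site. There a junction that omits an exon and belongs to a noncoding transcript took 24 of 32 reads in K562, 75.0% (56.6 to 88.5), against 2 of 19 in HepG2, 10.5% (1.30 to 33.1). The windows of junctions 4 and 5, which include the omitted exon, recur in the pseudogene SLC25A14P1. Of the mapped reads at these junctions, 76.0% and 17.6% were unique. With all mapped reads the skipping junction had 32 of 42 reads in K562 against 2 of 23 in HepG2. SLC25A25 had too few reads to be counted at the acceptor after its first exons, where the upstream first exon had 10 of 10 reads in K562 against 3 of 13 in HepG2. SLC25A14 and SLC25A25 were chosen here after their values were seen.

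**Figure D5:**
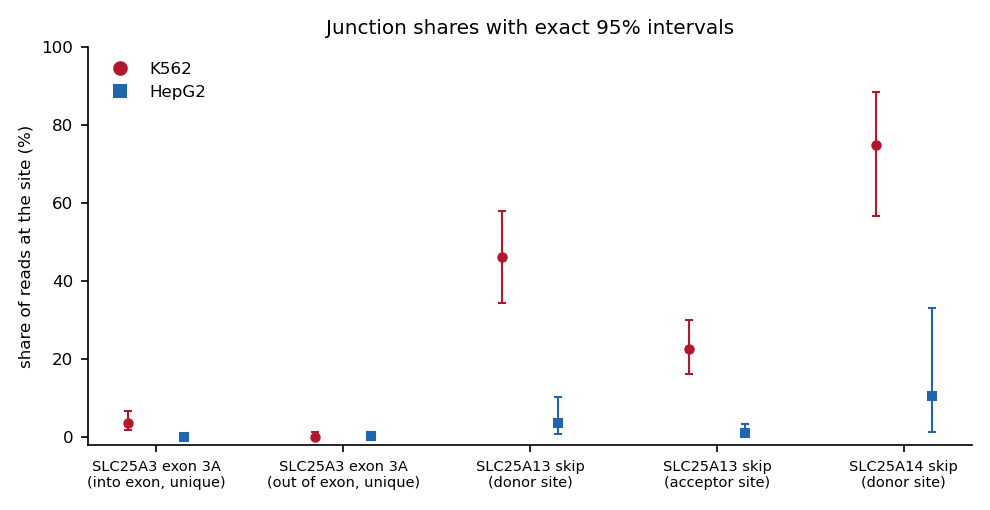
Share of unique reads at a splice site, in percent, that used exon 3A of SLC25A3 or a junction that skips an exon in SLC25A13 or SLC25A14, in K562 (red circles) and HepG2 (blue squares), with exact 95% intervals. Exon 3A stays near 0 in both lines, and the skip in SLC25A13 reaches 46.1% at the donor site in K562 and 3.70% in HepG2.

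Junctions that occur in no protein-coding transcript took 0.829% (0.705 to 0.969) of the family's reads in K562, 156 of 18813, and 0.401% (0.316 to 0.502) in HepG2, 76 of 18935. Over all protein-coding genes with 20 reads the shares were 0.569% in K562 and 0.259% in HepG2. Without SLC25A13 the family's shares were 0.652% (0.538 to 0.782) in K562 and 0.461% (0.361 to 0.580) in HepG2. SLC25A14 had 41 such reads in K562, as many as SLC25A13, and 8 in HepG2. Without both genes the shares were 0.424% (0.333 to 0.532) in K562 and 0.413% (0.318 to 0.526) in HepG2. SLC25A40 had the most such reads in HepG2, with 15 of 140 reads in K562 against 17 of 135 in HepG2.

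SLC25A15 and SLC25A29, carriers of urea cycle intermediates and of basic amino acids, were higher in HepG2 too. SLC25A15 (ENSG00000102743, chromosome 13, 40789412 to 40810111), which brings ornithine into the matrix for the urea cycle, had 100 reads in K562 against 668 in HepG2, a ratio of 0.149 (0.120 to 0.184). All 6 of its junctions with 10 or more reads lay on the HepG2 side, and the most-read one had 30 reads in K562 against 319 in HepG2. SLC25A29 had 3 reads in K562 against 31 in HepG2, a ratio of 0.0963 (0.0188 to 0.309). It lies on chromosome 14, whose median log2 ratio of -0.77 has the same direction.

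The glutamate carriers differed in level from each other in both lines. SLC25A22 had 221 reads in K562 against 344 in HepG2, a ratio of 0.639 (0.538 to 0.759), while SLC25A18 had 2 reads in K562 against 5 in HepG2. The glycine carrier SLC25A38, used in heme synthesis, had 217 reads in K562 against 180 in HepG2, a ratio of 1.20 (0.980 to 1.47). Its junction 2, whose window recurs in the pseudogene SLC25A38P1, had 73 mapped reads in K562 and 42 in HepG2 but 0 unique ones. With all mapped reads of SLC25A38, of which 69.0% were unique, the ratio was 1.37 (1.16 to 1.63). SLC25A44, a carrier of branched-chain amino acids, had 26 reads in K562 against 21 in HepG2.

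None (0) of the 4 iron and glutathione related carriers passed the rule. The mitoferrin SLC25A37, which imports iron into the mitochondria of red cell precursors, had 26 reads in K562 against 15 in HepG2, a ratio of 1.73 (0.880 to 3.50). SLC25A28, the mitoferrin of other tissues, had 14 reads in K562 against 18 in HepG2, a ratio of 0.774 (0.356 to 1.65). Both intervals include 1, so no difference between the lines was detectable at this depth. The level of SLC25A28 over that of SLC25A37 was 0.609 in K562 and 1.39 in HepG2, from these few reads.

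SLC25A39 and SLC25A40 import glutathione. SLC25A39 (ENSG00000013306, chromosome 17, 44319625 to 44324870) had 733 reads in K562 against 1009 in HepG2, a ratio of 0.723 (0.657 to 0.796), and SLC25A40 had 140 reads in K562 against 135 in HepG2, a ratio of 1.03 (0.809 to 1.32). The level of SLC25A39 was 4.30 times that of SLC25A40 in K562 and 4.47 times in HepG2. In SLC25A39 the direction differed between junctions. Of 11 junctions with 10 or more reads, 6 lay on the K562 side and 5 on the HepG2 side. Its 5′ untranslated junctions had 203 reads in K562 against 537 in HepG2, nearly all at 1 junction 15 bases before the start codon, whereas its coding junctions had 530 in K562 against 472 in HepG2. The coding junctions went both ways. Junction 2 had 110 reads in K562 against 31 in HepG2, and junction 7 had 14 in K562 against 61 in HepG2. With coding junctions only, the log2 ratio of the gene was 0.24 in place of -0.47. Its reads were also distributed least alike between the lines, with a Spearman correlation over 10 junctions of 0.36, in a range up to 0.95 for SLC25A1 and a median of 0.70 over 17 members.

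SLC25A20, SLC25A26 and SLC25A32, carriers of acylcarnitine and of cofactors, passed neither limit. SLC25A20, the carnitine-acylcarnitine carrier of fatty acid oxidation, had 168 reads in K562 against 187 in HepG2, a ratio of 0.894 (0.722 to 1.11). SLC25A26, for S-adenosylmethionine, had 59 reads in K562 against 64 in HepG2, and the intervals of both ratios include 1. SLC25A32, for folate and flavin cofactors, had 495 reads in K562 against 267 in HepG2, a ratio of 1.85 (1.59 to 2.15).

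The pyrimidine nucleotide carriers both had more reads in HepG2. SLC25A33 (ENSG00000171612, chromosome 1, 9539482 to 9585179) had 76 reads in K562 against 272 in HepG2, a ratio of 0.278 (0.213 to 0.360), and SLC25A36 had 83 reads in K562 against 157 in HepG2, a ratio of 0.526 (0.398 to 0.691). All unique reads of SLC25A33 came from junctions 5 and 6. Its junctions 1 to 4 had 0 unique reads, and the 30 bases around each of them recur in another annotated gene, AC135977.1. With all mapped reads its ratio was 0.311 (0.260 to 0.369).

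SLC25A51, which brings NAD into the matrix, had 49 reads in K562 against 19 in HepG2, a ratio of 2.57 (1.48 to 4.62). None of its junctions lies between coding bases. Its most-read junction, in the 5′ untranslated region, had 39 reads in K562 against 8 in HepG2, and without it the log2 ratio was -0.10 in place of 1.36. SLC25A45 had 4 reads in K562 against 18 in HepG2, and SLC25A47, known from liver, had 0 reads in K562 against 8 in HepG2, too few for a ratio.

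SLC25A46, which sits in the outer membrane and takes part in mitochondrial shape, had 203 reads in K562 against 201 in HepG2, a ratio of 1.01 (0.823 to 1.23). SLC25A43 and SLC25A53, whose solutes are little known, had 9 and 8 reads in K562 against 37 and 12 in HepG2. The ratio of SLC25A43, 0.242 (0.103 to 0.511), just missed the rule. SLC25A48, a carrier of choline, had 0 reads in K562 against 4 in HepG2. The 8 members under the minimum of 20 unique reads were SLC25A6, SLC25A18, SLC25A27, SLC25A31, SLC25A34, SLC25A35, SLC25A47 and SLC25A48.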

How the data were processed

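The authors deposited unnormalized counts per annotated junction, once for all mapped and once for unique reads, per the file headers. The labels give 1 table to both samples of each line. The submitters' processing notes name cutadapt, Bowtie2 and STAR 2.6.0 and the build GRCh38. Neither the annotation release nor the counting program is given in the sources used here. Signal tracks are not analysed here.

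Junctions were matched to GENCODE release 29 introns, exactly for 350016 (99.8%). Unique reads were summed per gene, without the 6033 junctions of more than 1 gene. TMM factors (edgeR 4.0.16) were set on 10956 genes with 20 or more reads. Ratios received exact 95% conditional binomial (Clopper-Pearson) intervals in SciPy 1.17.1, with a floor of 3 counts for 0. Footprints without molecular identifiers are not independent molecules, so intervals and limits cover counting error only. The calculations were tested on simulated data. A representative transcript is the consensus coding transcript with the most junction reads. Sequences were read from GENCODE 29 transcripts, and windows of 30 bases were looked up in the transcripts of all other genes.

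Each SLC25A gene was to be accounted for, and 1 that enters the totals and counts is not reported here by itself. Reads and ratios were given for members past 2-fold, the 12 most-read members, members with counted shares and relatives of such members. The members, lists and alternatives were chosen with earlier results of these data known. Alternatives were other scalings (total reads, DESeq2 1.42.0), reads, minimums, junctions and limits.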

Additional observations from a re-analysis of the deposited data

Results flagged for a closer look

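Reads outside the comparison of unique single-gene reads were found in 3 places. SLC25A6 had no unique read but 2368 mapped reads in K562 and 1002 in HepG2. SLC25A10 had 327 unique reads in K562 and 1321 in HepG2 at junctions that a readthrough gene shares. The pseudogene SLC25A24P1 had 33 mapped reads in K562 and 0 in HepG2, of which 3 in K562 were unique. The labels give no control samples to set these counts against, so they are given as they stand.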

How the results depend on the processing

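No paired analysis was possible because both samples of a line share 1 table, and for the same reason no replicate could be left out in turn. With scaling by total reads, which moves the median log2 ratio of all genes from -0.01 to 0.41, 7 members were higher in K562 in place of 3, since SLC25A5, SLC25A12, SLC25A25 and SLC25A32 were added, and SLC25A13 no longer passed the rule for HepG2 (log2 ratio -1.09). Over all genes K562 then took 58.0% of the calls in place of 43.3%. With the point ratio and no interval, 5 members lay past 2-fold toward K562 and 8 toward HepG2. Of all 10956 genes, 2501 then lay past 2-fold toward K562 and 2950 toward HepG2. The median log2 ratio of the outer membrane channels, 0.26, was 0.68 with total scaling and 0.52 with the most-read junction left out. With all mapped reads, 6 junctions were counted for shares in place of 3, the added ones all of SLC25A14. The share of exon 3A of SLC25A3 was 19.4% in K562 and 8.24% in HepG2 with all mapped reads, 3.64% and 0% with the junctions into the exon, and 0% in K562 with those out of it. Over single members and alternatives, 380 values kept their side of the limit, 13 passed it and 1 lost it. Of the 380, 363 also kept their sign and 17, of 11 members that passed neither limit, did not, 5 of them with total scaling. Some values could hardly change, since other minimums left each member's counts as they were and the point ratio could only add calls. Members under the minimum of an alternative gave no value there, such as SLC25A29 and SLC25A41 without their most-read junctions. SLC25A39 (-0.47) was at 0.24 with coding junctions only, 0.20 without its most-read junction and 0.30 with junctions 60 or more coding bases past the start. Without their most-read junctions SLC25A51 (1.36) was at -0.10 and SLC25A23 (-0.80) at 0.14. The alternative with junctions 60 or more coding bases past the start, and the shares of noncoding junctions without SLC25A13 and SLC25A14, were chosen after seeing the data. Depth limited the members with few reads, such as the mitoferrins.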

Other observations

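Other mitochondrial transport proteins were read beside the SLC25 genes. UCP2, an uncoupling protein of the same fold, had 729 reads in K562 against 20 in HepG2, a ratio of 36.3 (23.3 to 59.8). MTCH2, a carrier-like protein of the outer membrane that inserts other proteins, had 2362 reads in K562 against 6335 in HepG2, a ratio of 0.371 (0.354 to 0.389), and MTCH1 had 1150 reads in K562 against 1233 in HepG2. UCP1 and UCP3 had no reads. The median log2 ratio of the 3 measured genes was -0.11.

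Of 13 other inner membrane carriers and channels, 0 passed the rule for K562 and 4 for HepG2 (median log2 ratio -0.60), where 16.8% of all genes passed it for K562 and 21.9% for HepG2. MPC1 and MPC2, which together form the pyruvate carrier, had 415 and 312 reads in K562 against 1614 and 1221 in HepG2, with ratios of 0.256 (0.229 to 0.285) and 0.254 (0.224 to 0.288). SFXN3, a sideroflexin, had 19 reads in K562 against 288 in HepG2, and SMDT1, a subunit of the calcium uniporter, had 327 reads in K562 against 881 in HepG2. The 3 voltage-dependent anion channels of the outer membrane passed neither limit (median 0.26). Of the mapped reads of VDAC2, 83 of 2983 were unique in K562 and 60 of 2159 in HepG2. Those of VDAC1 were unique in 2714 of 7538 in K562 and 2861 of 8048 in HepG2.

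Of 11 measured genes of the machinery that imports carriers, 2 passed the rule for K562 and 0 for HepG2 (median log2 ratio 0.30), a K562 share close to the 16.8% of all genes. These were the small chaperone genes of the intermembrane space TIMM10, with 1499 reads in K562 against 415 in HepG2, a ratio of 3.60 (3.22 to 4.02), and TIMM13, with 2089 reads in K562 against 761 in HepG2, a ratio of 2.73 (2.51 to 2.97). TIMM9 and TIMM10B, partners of TIMM10, had ratios of 1.41 (1.27 to 1.58) and 1.56 (1.33 to 1.85). TIMM8A, a partner of TIMM13, had 15 unique reads in K562 against 35 in HepG2, a ratio of 0.427 (0.216 to 0.802), but 262 mapped reads in K562 against 170 in HepG2. AGK, a subunit of the carrier translocase, had 1340 reads in K562 against 632 in HepG2 and a ratio of 2.11 (1.92 to 2.32) that did not pass. TIMM22, the channel of that translocase, had 165 reads in K562 against 276 in HepG2, a ratio of 0.595 (0.488 to 0.724).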
